A study of Bos taurus with 6 samples.

Results

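The genes examined here were 9 genes of myelin and of the oligodendrocyte, the glial cell that makes myelin in the brain and spinal cord. They were MBP, MOBP, MOG, MAG, CNP, BCAS1, HAPLN2, MYRF and UGT8, which were 9 of the 47249 genes in the table and held 37 of its 108527 transcript entries. They were chosen by name after 1 library, calf 3, had been seen to hold very high values of them. Their high level in calf 3 is therefore how they were found and is described without a test. The data were FPKM values, a level of RNA scaled to transcript length and to the size of the library, from RNA sequencing of whole testis of untreated Wandong cattle (Bos taurus). There were 3 immature calves aged 3 months (calf 1 to calf 3) and 3 mature bulls aged 3 years (bull 1 to bull 3), with 1 library per animal. The libraries were strand-specific and made from total RNA after the removal of ribosomal RNA, and all 6 were labelled as testis.

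Calf 3 stood apart from the other libraries, and its values went against its tissue label. GATA4, FSHR and WT1, which mark the Sertoli cells that support germ cells in the tubule, were each listed at 0 in calf 3. The 7 Sertoli cell genes summed to 424 FPKM in calf 3, of which CLU, a gene of many tissues, gave 423, against 2799 in calf 1, 2668 in calf 2 and 370 to 387 in bulls. The genes of the steroid-making Leydig cells summed to 0.466 FPKM in calf 3, against 1130 to 2726 in the other 5 libraries, and 6 germ cell genes summed to 2.50 FPKM, against 43.0 and 53.9 in calf 1 and calf 2. The table listed 27164 genes above 0 in calf 3 and 31697 to 38975 in the others. Calf 3 is therefore called by its label, shown apart, and left out of every test. The bulls were compared with calf 1 and calf 2. For the members, their transcript entries and further genes of the pathway, changes of calls with all 6 libraries are given.

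Myelin is a membrane that glia wrap around axons in many layers, and it lets impulses jump from node to node. In the brain and spinal cord, the compaction of the layers needs MBP, a basic protein that binds the inner faces of the membrane. In peripheral nerves the Schwann cell makes myelin. The testis receives peripheral nerve fibers and holds no oligodendrocytes, yet some genes of the list have uses elsewhere. UGT8, which makes the galactolipids of myelin, also makes the precursor of seminolipid, the main glycolipid of male germ cells.

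MBP and MOBP, both proteins of compact myelin, were the highest members in calf 3. MBP (ENSBTAG00000022890, chromosome 24, 2224078 to 2328579) measured 2.69 FPKM in calf 1, 3.24 in calf 2, 3861 in calf 3, 3.21 in bull 1, 2.49 in bull 2 and 1.46 in bull 3. MOBP (ENSBTAG00000009774, chromosome 22, 12723390 to 12768748) measured 0.0280, 0.121 and 2391 FPKM in the 3 calves and 0.717, 0.295 and 0.643 in the bulls. In calf 3, MBP was the 5th and MOBP the 6th highest of 16372 genes matched to a protein-coding symbol. Outside calf 3, MOBP did not reach 1 FPKM in any library, and its calf 3 value was 3334 times the highest of the others.

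MOG and MAG, both immunoglobulin-type proteins of the myelin surface, the latter facing the axon, were lower in calf 3 than both of these. MOG (ENSBTAG00000017818, chromosome 23, 28941968 to 28953585) measured 0.336, 0.332 and 228 FPKM in the calves and 4.62, 1.10 and 1.26 in the bulls. All 3 bulls lay above calf 1 and calf 2, and bull 1 lay well above the other bulls. MAG (ENSBTAG00000017044, chromosome 18, 46002123 to 46018891) measured 0.256, 0.459 and 311 FPKM in the calves and 0.218, 0.186 and 0.456 in the bulls. The bulls and the first 2 calves overlapped for MAG, and none reached 1 FPKM.

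CNP and UGT8 are enzymes. CNP (ENSBTAG00000025762, chromosome 19, 42130921 to 42138136), a phosphodiesterase of the cytoplasmic channels of myelin, measured 25.2, 25.2 and 674 FPKM in the calves and 13.7, 13.9 and 18.8 in the bulls. It was the only member above 10 FPKM outside calf 3, and its 5 values there made up 37.0% to 77.4% of the summed FPKM of the 9 members. UGT8 (ENSBTAG00000004574, chromosome 6, 10925712 to 11037983) measured 1.42, 2.29 and 296 FPKM in the calves and 2.36, 2.57 and 2.12 in the bulls. Calf 2 lay among the bulls and calf 1 below them.

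BCAS1, HAPLN2 and MYRF belong to the maturing oligodendrocyte, to the matrix of the node and to gene control. BCAS1 (ENSBTAG00000000835, chromosome 13, 81424925 to 81524746), a marker of oligodendrocytes that are beginning to myelinate, measured 1.29, 2.25 and 322 FPKM in the calves and 5.02, 0.255 and 8.11 in the bulls. The bulls spread on both sides of calf 1 and calf 2, with bull 2 the lowest of all. HAPLN2 (ENSBTAG00000015784, chromosome 3, 14207776 to 14213176), a link protein of the matrix at nodes of Ranvier, was listed at 0 in calf 1 and measured 0.0315 FPKM in calf 2, 122 in calf 3, and 6.97, 2.43 and 3.52 in the bulls. MYRF (ENSBTAG00000006990, chromosome 29, 40197141 to 40232303), the transcription factor that turns on myelin genes, measured 1.35, 2.002 and 36.4 FPKM in the calves and 0.196, 0.275 and 0.274 in the bulls. HAPLN2 was higher in every bull than in calf 1 and calf 2, while MYRF was lower in every bull.

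**Figure D1:**
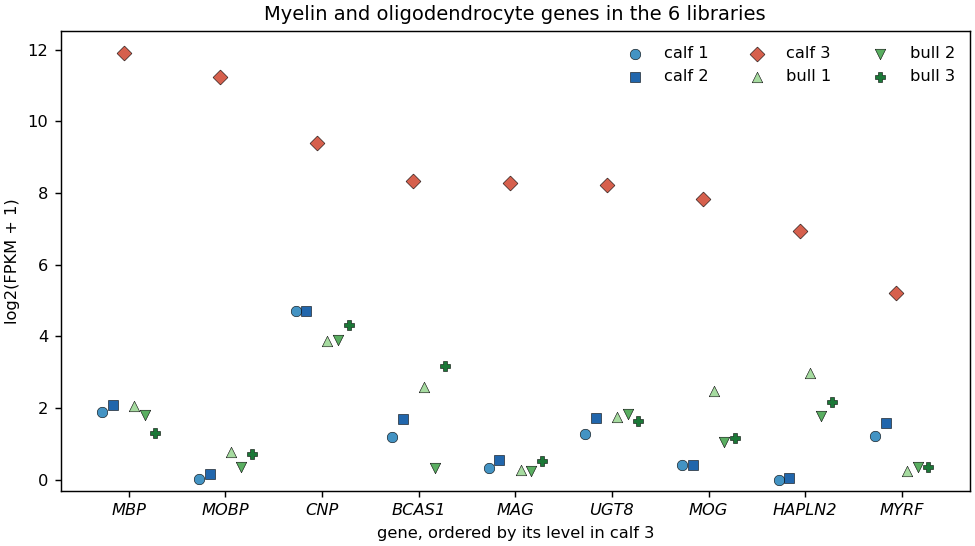
Level of each of the 9 genes as log2(FPKM + 1) in each library, with 1 point per library and the genes ordered by their level in calf 3. Calf 3 is the highest point for all 9 genes, from 3861 FPKM (MBP) to 36.4 FPKM (MYRF), and outside calf 3 only CNP exceeds 10 FPKM.

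The plot of the 9 genes by library shows the same library on top each time. Each of the 9 was highest in calf 3, as were 24.4% of the 23954 genes that reached 1 FPKM in any library. For all 9, and for 6.29% of those genes, calf 3 exceeded the average of the other calves at least 4-fold, a difference of 2 in log2(FPKM + 1). The median log2 difference of the members was 6.91, while that of the 23954 genes was -0.0009. The fold of calf 3 over the highest other library ran from 17.4 (HAPLN2) to 3334 (MOBP). Among 20527 symbols ordered by that excess on the log2(FPKM + 1) scale, MOBP, MBP and MAG were 2nd, 3rd and 6th, UGT8 was 15th, MOG 39th, BCAS1 44th, CNP 62nd, HAPLN2 137th and MYRF 180th. The members differed 106-fold among themselves in calf 3, from MYRF to MBP. In sum they measured 8240 FPKM in calf 3, or 3.16% of the summed FPKM of protein-coding genes, against 23.5 to 37.0 FPKM, or 0.0069% to 0.0116%, elsewhere. Their make-up differed as well: MBP gave 46.9% of the members' sum in calf 3 and 3.99% to 10.6% in the other libraries. In bulk tissue, fewer cells of a type and less RNA per cell cannot be told apart.

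The MBP gene is known for 2 kinds of transcript, those that start at an inner promoter and make the myelin proteins, and longer ones that start far upstream and are also made outside oligodendrocytes. The table split MBP into 9 transcript entries. The 4 entries that span 2295497 to 2328579, here called the inner entries, summed to 3467 FPKM in calf 3 and made up 89.8% of MBP there. The same 4 entries made up 2.20% in calf 1, 4.86% in calf 2, 3.11% in bull 1, 4.84% in bull 2 and 0% in bull 3. An assembled entry on the other side of the locus, TCONS_00211358 (2224078 to 2299968), showed the opposite, with 2.41% of MBP in calf 3, 94.9% and 92.7% in calf 1 and calf 2, and 48.0%, 61.8% and 100% in bulls 1, 2 and 3. In level, this outer entry measured 2.55 and 3.00 FPKM in calf 1 and calf 2, 93.2 in calf 3, and 1.54, 1.54 and 1.46 in the bulls. The whole-locus entry MBP-201 held 6.70% in calf 3 and 3.28% in bull 2 and was listed at 0 in the others.

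Another 3 entries counted under MBP were named as antisense to it. They held 48.9% of MBP in bull 1 and 30.1% in bull 2, 2.93% and 2.41% in calf 1 and calf 2, 1.08% in calf 3 and 0% in bull 3. Without them, MBP measured 2.61 and 3.16 FPKM in calf 1 and calf 2, 3819 in calf 3, and 1.64, 1.74 and 1.46 in the bulls. In that sum every bull was lower than calf 1 and calf 2, whereas the groups overlapped in the gene value. The sum was not tested, and bulls did not overlap with calf 1 and calf 2 for 84.7% of all genes tested, so no difference with age is read from it. The table gave no strand for its entries, and the outer entry was not matched to a named upstream transcript.

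**Figure D2:**
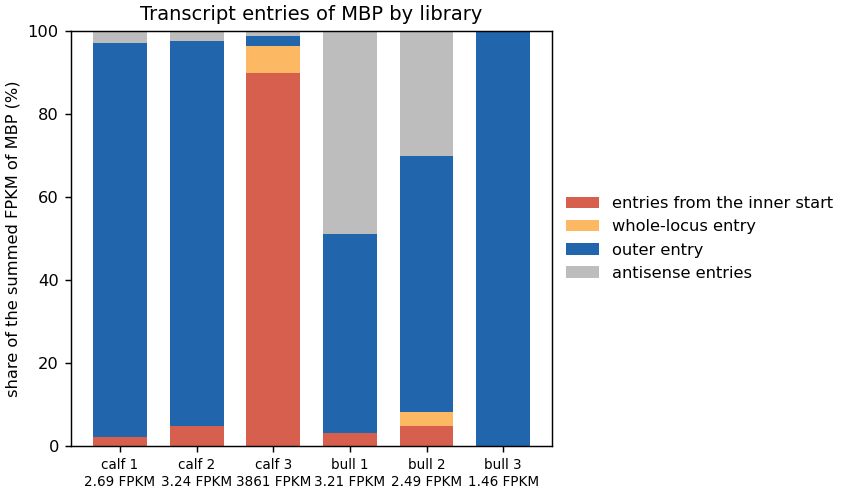
Share of the summed FPKM of MBP (percent) held by 4 classes of transcript entry in each library, with the FPKM of MBP written under each bar. The inner entries hold 89.8% in calf 3 and at most 4.86% elsewhere, while the outer entry holds 48.0% to 100% in the other 5 libraries.

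The other members also differed in which entry was highest. Of the 7 members with several entries, 3 had the same highest entry in calf 3 and in the mean of the other 5 libraries. These were MAG-201 (99.2% of MAG in calf 3), UGT8-202 (98.2% of UGT8) and MOG-201 (78.1% of MOG). In single libraries another entry was highest, at 0.249 to 1.25 FPKM. This held for MAG in calf 2 and bull 3, for MOG in calf 1 and for UGT8 in calf 2. For 4 members the entry changed. MOBP was split in calf 3 between the assembled entries TCONS_00193197 (47.5%) and TCONS_00193198 (45.4%). In the mean of the other 5 libraries the highest entry was MOBP-OT1, a shorter overlapping one. It was the highest in the bulls only, with 55.6%, 92.2% and 63.0% at no more than 0.405 FPKM. MOBP-OT1 was listed at 0 in calf 1, where MOBP-201 was highest (61.07%, 0.0171 FPKM). In calf 2 the highest was TCONS_00193198 (43.96%, 0.0532 FPKM), also a main entry in calf 3. BCAS1-201 held 93.4% of BCAS1 in calf 3 and 0% to 35.5% elsewhere, where the highest mean was that of BCAS1-206. BCAS1-206 was the highest entry in bull 1 only and was listed at 0 in calf 1 and bull 2. MYRF-202 held 84.9% and 78.3% of MYRF in calf 1 and calf 2 and was listed at 0 in calf 3, where MYRF-203 held 62.2% and MYRF-201 37.8%. In bulls 1, 2 and 3, MYRF-202 held 13.5%, 0% and 0%. The highest entry in bulls was MYRF-201 in bull 1 (86.5%) and bull 3 (82.1%) and MYRF-203 in bull 2 (79.2%), at no more than 0.225 FPKM. CNP and HAPLN2 had 1 entry each. The number of fragments behind these shares cannot be read from FPKM.

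The next question, which the study's design asks of any gene, was whether the members differed with age. HAPLN2 rose in bulls and MYRF fell in bulls, and the other 5 members tested did not pass. The test was limma on log2(FPKM + 1) with Benjamini-Hochberg adjustment, and a gene was called where the groups differed at least 2-fold at an adjusted p under 0.05. Of the 9 members, 7 reached 1 FPKM in at least 2 of the 5 libraries and were tested. HAPLN2 and MOG passed that filter only through the bulls and MYRF only through calf 1 and calf 2, so their share of calls is not a measure of the members. Over all 19848 genes tested, 51.6% were called, 37.7% higher and 13.9% lower in bulls, against 2 of the 7 members, 1 in each direction. The groups did not overlap for 4 of the 7 and for 84.7% of all genes tested.

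HAPLN2 had a log2 fold change of 2.29 (SE 0.36, adjusted p = 0.00179, limma, 3 bulls against 2 calves). Its size depends on the pseudocount, because calf 1 was listed at 0 and calf 2 was near 0, and with a pseudocount of 0.1 it was 5.13. MYRF fell by 1.09 on the log2 scale (SE 0.16, adjusted p = 0.00151, limma), and by 2.33 with a pseudocount of 0.1. MYRF stayed below the adjusted p threshold but missed the fold criterion without calf 2 (-0.91) and after each library was rescaled to the same sum (-0.93). With calf 3 among the calves, as labelled, none of the 7 was called, and HAPLN2 was at -0.01 (adjusted p = 0.997, limma) and MYRF at -2.36 (adjusted p = 0.104, limma).

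MOG was at 1.16 (SE 0.44, adjusted p = 0.0542, limma) with no overlap between the groups. It was called without bull 2 (1.42, adjusted p = 0.0443, limma) and with the replicate number as a block (1.36, adjusted p = 0.0314, limma), and also with a pseudocount of 0.1, a filter of 3 libraries and rescaling. It was not called without bull 3 (1.36, adjusted p = 0.0609, limma), the same estimate as with the block. Nor was it called without a filter (1.16, adjusted p = 0.109, limma), or without calf 1 or calf 2 (1.16 in each). Without bull 1 it missed only the fold criterion (0.71, adjusted p = 0.00671, limma). It was smaller and not called under quantile normalization (0.22, adjusted p = 0.730, limma) and with equal medians (0.67, adjusted p = 0.235, limma). Beside it, ZFP57, a gene whose interval covers that of MOG, measured 7.53 and 5.52 FPKM in calf 1 and calf 2 and 0.572, 1.12 and 1.05 in the bulls, and whether fragments were shared between the overlapping genes was not tested. CNP was at -0.68 (SE 0.16, adjusted p = 0.00910, limma), short of the fold criterion, and was called after quantile normalization (-1.40) and with equal medians (-1.18), while under rescaling it was at -0.20 (adjusted p = 0.349, limma). BCAS1 was at 0.59 (SE 0.83, adjusted p = 0.541, limma), and without bull 2, whose value was the lowest, it was called at 1.44 (adjusted p = 0.0108, limma). It was at 0.014 without bull 3 (adjusted p = 0.989, limma), 0.31 without bull 1 and 0.34 without calf 1, so its value rested on single libraries. UGT8 was at 0.24 (SE 0.18, adjusted p = 0.269, limma) and MBP at -0.26 (SE 0.25, adjusted p = 0.389, limma). The sign of UGT8 turned under quantile normalization (-0.43) and that of MBP under rescaling (0.11). UGT8 was at 0.61 under rescaling (adjusted p = 0.0244, limma) and MBP at -0.75 with equal medians (adjusted p = 0.0451, limma). Both were short of the fold criterion.

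The median log2 fold change of the 7 members was 0.24 and that of all genes tested was 0.50. The median of all genes moved with the scaling, to -0.18 under quantile normalization and 0.91 under rescaling, and the calls moved from 7474 higher and 2767 lower to 4196 higher and 5653 lower, and to 9238 higher and 1685 lower. Without the filter, MOBP was at 0.52 (adjusted p = 0.0465, limma) and MAG at -0.08 (adjusted p = 0.649, limma), and neither was called. MAG shares its interval with an unnamed assembled gene, XLOC_093746, which measured 0.738 and 0.696 FPKM in calf 1 and calf 2, 26.9 in calf 3 and 5.03 to 7.71 in bulls.

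**Figure D3:**
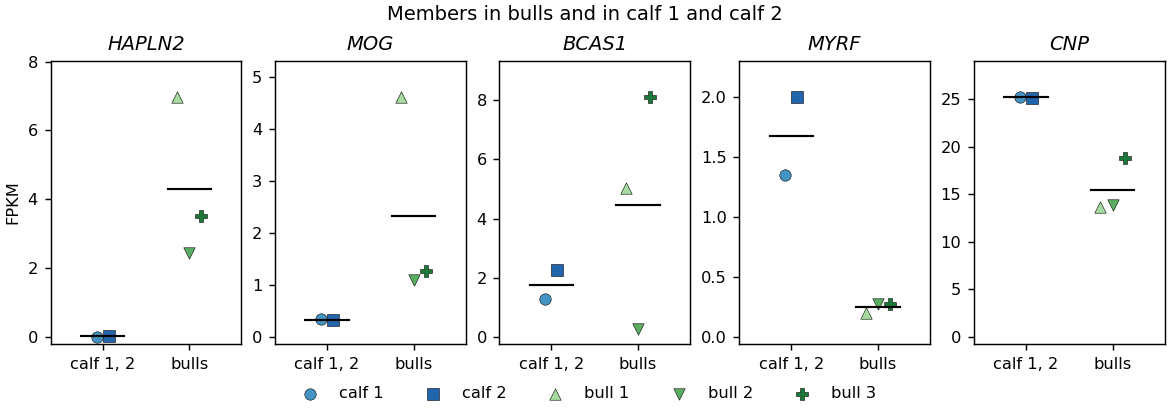
FPKM of 5 members in calf 1 and calf 2 and in the 3 bulls, with 1 point per library, a line at each group's mean and a linear axis of its own for each gene. HAPLN2 and MOG are higher and MYRF and CNP lower in every bull than in both calves, while for BCAS1 the bulls run from 0.255 to 8.11 FPKM around the 2 calves.

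At the level of transcripts, 9 entries of the members were tested and 2 were called, against 47.2% of 27415 entries in all (34.2% higher and 13.0% lower in bulls). Both had passed the filter only through the group in which they were higher, so this count is not a measure of the members either. HAPLN2-201, the single entry of its gene, was at 2.29 (adjusted p = 0.00486, limma). MYRF-202 fell by 1.22 on the log2 scale (SE 0.15, adjusted p = 0.00187, limma). It went from 1.14 and 1.57 FPKM in calf 1 and calf 2 to 0.0263 in bull 1 and 0 in bulls 2 and 3. With all 6 libraries neither entry was called. HAPLN2-201 was then at -0.01 (adjusted p = 0.997, limma) and MYRF-202 at -0.81 (adjusted p = 0.105, limma). The outer entry of MBP was at -0.58 (SE 0.15, adjusted p = 0.0199, limma), short of the fold criterion, and passed it under quantile normalization (-1.24) and equal medians (-1.14). Under rescaling it was at -0.26 (adjusted p = 0.183, limma), and its adjusted p was 0.0992 with the replicate block, 0.0599 without calf 1 and 0.110 without calf 2 (limma). UGT8-202 was at 0.61 (adjusted p = 0.0283, limma), CNP-201 at -0.68 (adjusted p = 0.0163, limma) and MOG-201 at 1.26 (adjusted p = 0.0870, limma). The 3 tested entries of BCAS1 were at 0.88 (BCAS1-201, adjusted p = 0.189, limma; called at 1.37 without bull 2), 0.45 (BCAS1-206, adjusted p = 0.536, limma) and -0.08 (TCONS_00078459, adjusted p = 0.878, limma).

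The genes whose excess in calf 3 was largest, apart from the members, included genes of myelin, of neurons and of astrocytes. Of the first 10, the 8 reported here were GFAP, TUBB4A, NEFM, OPALIN, ERMN, PCP4, PCDH9 and NEFL, with an excess over the highest of the other 5 libraries from 9.77 (GFAP) to 6.62 (NEFL) on the log2(FPKM + 1) scale. OPALIN and ERMN, both oligodendrocyte proteins, measured 129 and 195 FPKM in calf 3 and at most 0.101 and 0.678 elsewhere. GFAP, the intermediate filament of astrocytes, measured 1193 FPKM in calf 3 and at most 0.365 elsewhere.

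Further genes of the pathway were taken from 6 lists, which were written with earlier results of these data known, and those that reached 1 FPKM in any library are counted. Calf 3 was at least 4-fold above calf 1 and calf 2 for 8 of 9 genes of the myelin membrane, with a median log2 difference of 5.58. ERMN (7.58) and OPALIN (6.93) differed most, and CD9 (2.33) and TSPAN2 (1.24) least. The count was 9 of 9 for transcription factors of the lineage (median 4.35), led by OLIG1 (6.98), which measured 131 FPKM in calf 3 and at most 0.884 elsewhere, and by OLIG2 (5.27), which was listed at 0 in all 3 bulls. TCF7L2 (2.38) and NKX2-2 (2.22) were the lowest of that list. Genes of the axon contact, the paranode and the node gave 10 of 10 (median 4.16), with NFASC (5.75) and CNTN2 (5.72), both adhesion molecules, at the top and ANK3 (3.09) and VCAN (2.12) at the bottom.

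Receptors, enzymes and other genes of the oligodendrocyte gave 11 of 12 (median 3.26), with TPPP (5.96), a tubulin-binding protein, and ABCA2 (4.29), a lipid transporter, at the top, and GPR37 (2.17) and FYN (0.51) at the bottom. Precursor genes gave 6 of 9 (median 3.29). Among them GPR17 (6.06) and PTPRZ1 (5.23) were the highest, whereas PDGFRA (-0.01) and CSPG4 (-0.36), the receptor and the proteoglycan that define the early precursor, did not stand above the other calves. PDGFRA measured 54.7, 55.8 and 54.7 FPKM in the calves, and in testis it is also a gene of interstitial cells. Lipid genes gave 5 of 10 (median 1.99), with FA2H (5.22), which hydroxylates the fatty acids of galactolipids, and ENPP6 (3.51) at the top. GALC (1.13), which breaks galactolipids down, and ARSA (-0.66), which removes their sulfate, were at the bottom. ZNF488 and CNTNAP2 were not found in the table by symbol.

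Markers of other cell types moved with the members in calf 3. Of the astrocyte list, 7 of 7 were at least 4-fold above the other calves (median 5.18), and the list summed to 2953 FPKM in calf 3 and 82.2 to 169 elsewhere. Of the neuron list, 7 of 8 were (median 5.37), summing to 937 FPKM in calf 3 and 5.37 to 16.6 elsewhere. Schwann cell genes gave 1 of 6 (median 0.54), and 3 of the 6 were highest in calf 3, against 24.4% of the 23954 genes. The list summed to 29.1 FPKM in calf 3, 28.2 and 31.5 in calf 2 and calf 1 and 6.69 to 12.3 in bulls. PMP22 gave most of each sum, with 18.4 FPKM in calf 3, 24.5 and 29.1 in calf 2 and calf 1 and 4.77 to 9.17 in bulls. PMP2, a lipid-binding protein of peripheral myelin, measured at most 0.0620 FPKM in any library. Of 6 genes of microglia and macrophages, 2 were at least 4-fold above (P2RY12 and CX3CR1, genes of microglia) and 2 at least 4-fold below (TMEM119, also a gene of microglia, and C1QA), and the list summed to 90.6 FPKM in calf 3 and 61.5 to 179 elsewhere. At least 4-fold below were 6 of 7 values of Sertoli cells, 6 of 7 of Leydig cells and 2 of 6 of germ cells. In these testis lists 3, 4 and 2 values were listed at 0, not all of them among those 4-fold below. The 7 Leydig cell values came from 5 symbols, because CYP17A1 was listed under several gene identifiers.

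**Figure D4:**
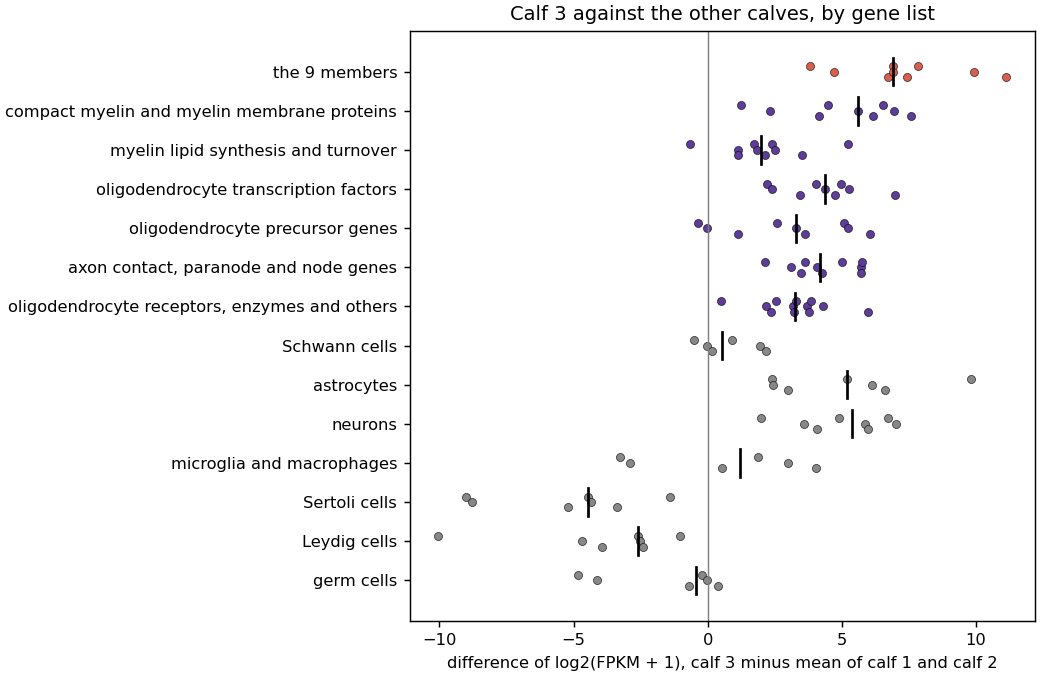
Difference of log2(FPKM + 1) between calf 3 and the mean of calf 1 and calf 2 for each measured gene (points) and the median (black line), for the 9 members (red), 6 pathway lists (purple) and 7 cell type lists (grey). Medians are 6.91 for the members, 1.99 to 5.58 for the pathway lists and 0.54 for Schwann cells, and lie below 0 for the 3 testis lists.

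In bulls against calf 1 and calf 2, the pathway lists moved in both directions. Of their 40 genes tested, 18 were called by limma, 9 higher and 9 lower, where 51.6% of all genes tested were called. Of the 18, 7 had passed the filter only through the group in which they were higher (GAL3ST1, BCAN, GPR17 and TNR in bulls, CSPG4, CNTN1 and EVI2A in calf 1 and calf 2), so nothing is read from the count beside that share. With all 6 libraries, 7 of the 18 were still called, CD9, CSPG4, PDGFRA, VCAN, EVI2A, GPR37 and FYN. The median log2 fold change of the 40 was 0.25, and that of all genes was 0.50. Myelin membrane genes gave 2 higher, CLDN11 (3.60) and MAL (1.27), and 2 lower, GPM6B (-1.28) and CD9 (-1.19), of 5 tested. CLDN11, also the claudin of the Sertoli cell barrier, was at 0.940 FPKM in calf 1 and 18.2 in calf 2, and without calf 1 its log2 fold change was 1.94. Lipid genes gave 2 higher of 9, GAL3ST1 (2.19), which adds the sulfate of sulfatide and of seminolipid, and GALC (1.12). GAL3ST1 measured 0.194 and 0.146 FPKM in calf 1 and calf 2 and 6.54, 2.78 and 4.32 in the bulls. UGT8, the enzyme before it in the pathway, was not called.

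Precursor genes gave 3 higher, GPR17 (1.94), SOX6 (1.23) and BCAN (1.10), and 2 lower, CSPG4 (-1.79) and PDGFRA (-1.69), of 8 tested. Node genes gave TNR (1.76) higher and VCAN (-2.15) and CNTN1 (-1.60) lower, of 5. The remaining genes gave CA2 (3.66), a carbonic anhydrase, higher and EVI2A (-1.89), GPR37 (-1.79) and FYN (-1.40) lower, of 10, and none of 3 transcription factors was called. PDGFRA, CSPG4, VCAN, EVI2A and GPR37 were called under every alternative in which they were tested. MAL, GALC, SOX6 and BCAN lost their call under quantile normalization and with equal medians, TNR under quantile normalization, and CD9, GPM6B and FYN under rescaling. BCAN also lost it without calf 1, without calf 2 and without bull 1, and CD9 without bull 1 (-0.99). In the same libraries, 7 of 7 Sertoli cell genes were called lower and 6 of 6 germ cell genes higher in bulls. Of 7 Leydig cell values, from 5 symbols, 0 were called. Over all genes tested, 13.9% were called lower and 37.7% higher. Some of the germ cell genes had passed the filter only through bulls, where they were high, so their count is not a measure of that list. The part of cell make-up in the values of the members was not tested.

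The nearest measured genes on the chromosome were mostly not high in calf 3. On each side of each member, 1 symbol was taken. It was the nearest that reached 1 FPKM in any library and did not overlap the member. The gaps ran from 377 bases (TTC25 and CNP) to 518005 bases (ARSJ and UGT8). Of these 18 symbols, 11 were lower in calf 3 than in the mean of calf 1 and calf 2, with a median log2 difference of -0.23. Even so, 4 of the 18 were at least 4-fold above, against 6.29% of the 23954 genes that reached 1 FPKM in any library. These 4 included BCAN (5.06), beside HAPLN2, and GABBR1 (3.45), a subunit of the GABA-B receptor beside MOG. The others were MYRIP (2.51), 153863 bases from MOBP, and DAGLA (2.49), beside MYRF. BCAN is the proteoglycan brevican of brain matrix and lies 12780 bases from HAPLN2. It measured 0.968, 0.945 and 64.2 FPKM in the calves and 4.82, 2.88 and 2.28 in the bulls. Both genes of the pair were higher in every bull than in calf 1 and calf 2. Both had passed the filter only through bulls, and the groups did not overlap for 84.7% of all genes tested. Nothing is therefore read from the shared direction. RPSA, a ribosomal protein gene 11726 bases from MOBP, was lower in calf 3, with 144 FPKM against 1111 and 1014 in calf 1 and calf 2. TTC25 and DNAJC7, which lie 377 and 1228 bases from CNP, differed from the other calves by -0.04 and 0.01 on the log2 scale.

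**Figure D5:**
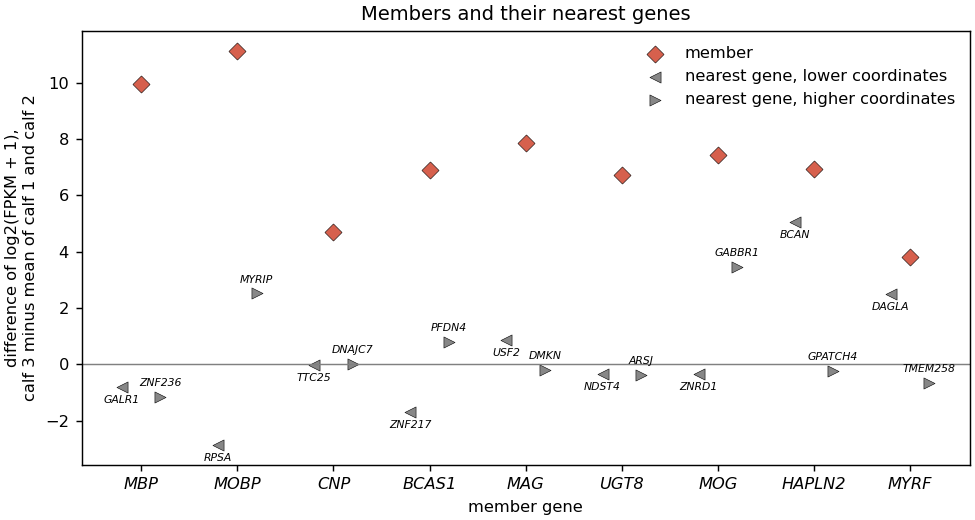
Difference of log2(FPKM + 1) between calf 3 and the mean of calf 1 and calf 2 for the 9 members (diamonds) and for the nearest named gene on each side (triangles, named). Only named genes that reached 1 FPKM in any library and did not overlap the member were considered as nearest. The members lie between 3.82 (MYRF) and 11.12 (MOBP), and 11 of the 18 neighbours lie below 0.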

How the data were processed

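FPKM values per gene and per transcript were deposited by the authors in 2 tables, with no counts, so the depth behind a value is not known from them and no counting interval is given. Per the study's methods, reads were filtered, mapped with TopHat2 and assembled with StringTie. Cuffdiff and Ballgown are named for the levels of circRNAs. The software behind the deposited FPKM tables of genes and transcripts, and its use of strand, are not given in the sources used here. The methods name the assembly UMD 3.1.1, but the positions printed are those of the tables, and the intervals of all 9 members overlapped the locus of the same symbol in the RefSeq annotation of a later assembly, ARS-UCD2.0.

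Genes were taken by symbol and transcripts by gene identifier. The members, the gene lists and the tests were chosen with earlier results of these data known. Values were transformed to log2(FPKM + 1). Calf 3 was compared with the mean of calf 1 and calf 2 over genes with at least 1 FPKM in any library, without a test, because the members were chosen on it. Bulls were compared with calf 1 and calf 2 with limma 3.58.1 (R 4.3.3, empirical Bayes with trend, Benjamini-Hochberg over all features tested), over features with at least 1 FPKM in at least 2 of the 5 libraries. The p-values rest on 5 animals. The scripts were tested on simulated data. Alternatives were a pseudocount of 0.1, no filter or a filter of 3 libraries, quantile normalization, rescaling to a common sum, equal medians, no trend, all 6 libraries, a replicate block, and each library left out. Named genes were the members, the 10 symbols with the largest excess in calf 3, and the nearest symbols of the members. The nearest symbols had at least 1 FPKM in any library and did not overlap the member. Also named were, for each list, the 2 highest and 2 lowest differences and the calls in bulls, and for each member the highest entries. Genes named beyond this rule (CLU, GATA4, FSHR, WT1, PMP2, PMP22, P2RY12, CX3CR1, TMEM119, C1QA, ZFP57, XLOC_093746, MYRF-201 and TCONS_00193198) were chosen after their values were seen. Some genes of the lists and of the 10 symbols are not reported here, and counts over the lists leave them out. Figures were drawn with matplotlib 3.10.9 in Python 3.11.15.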

Additional observations from a re-analysis of the deposited data

How the results depend on the processing

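The members called in bulls against calf 1 and calf 2 numbered 2, and 0 with all 6 libraries. When 1 library was left out, they numbered 1 to 4, with 1 without calf 2 and 4 without bull 2. HAPLN2 kept its call in every alternative but all 6 libraries, where it was at -0.011.

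With calf 3 among the calves, the direction also turned for BCAS1 (-1.71), UGT8 (-2.00), MOG (-1.31), UGT8-202 (-1.77), HAPLN2-201 (-0.011), MOG-201 (-1.17), BCAS1-201 (-1.81), BCAS1-206 (-0.65), MAL (-0.59), BCAN (-0.59) and GPR17 (-0.082), by the addition of calf 3 itself. UGT8 turned under quantile normalization (-0.43) and equal medians (-0.25), and MBP under rescaling (0.11). BCAS1-206 turned under quantile normalization (-0.066) and equal medians (-0.11), and with 1 library left out it ran from -0.054, without calf 1, to 0.96, without calf 2. TCONS_00078459 turned under rescaling (0.11) and without calf 2 (0.17), and with 1 library left out it ran from -0.40 to 0.26, the latter without bull 2. The cause of these was not tested.

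The median log2 difference of the members in calf 3, 6.91, was 9.03 with a pseudocount of 0.1, 7.30 under quantile normalization, 7.73 under rescaling and 6.89 to 7.14 when calf 1 or calf 2 was left out. That of the 18 neighbours, -0.23, turned to 0.39 under rescaling and was -0.27 to -0.020 with 1 calf left out.

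Replicate numbers were shared by name only: over the genes tested, the difference of calf 1 and calf 2 and that of bull 1 and bull 2 correlated at -0.01, with only 2 pairs. With the replicate number as a block, 3 members were called, and genes called in all went from 10241 to 10188.

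Genes called in all ranged from 8876 with all 6 libraries to 12092 with a pseudocount of 0.1. The tables hold no counts, so what depth allows for single values was not computed.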
